A study of Mus musculus with 18 samples.

Results

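The genes described here encode the oxidative phosphorylation machinery of the mitochondrial inner membrane, measured in mouse brains of 3 estrogen receptor genotypes. A gene was taken where its platform symbol began with Nduf, Uqcr, Cox4, Cox5, Cox6, Cox7, Cox8 or Atp5, or was Sdha, Sdhb, Sdhc, Sdhd or Cyc1. Only probe sets with a single gene symbol counted, and the probe set with the highest mean over the 18 arrays stood for the gene. This gave 91 genes of the 18193 named on the array, read by 180 probe sets: 44 for complex I, 4 for complex II, 9 for complex III, 17 for complex IV and 17 for complex V. Of the 91, 82 encode structural subunits or their isoforms. The other 9 carry a family symbol without being subunits, namely the 8 complex I assembly factors Ndufaf1 to Ndufaf8 and Cox7a2l, a factor in the assembly of respiratory supercomplexes. For 89 genes the signal passed the filter on low values, and these were tested. The muscle-type isoform Cox8b and the testis-type isoform Cox7b2 were below it.

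Complexes I and II pass electrons from NADH and succinate to ubiquinone, complex III passes them on to cytochrome c, and complex IV hands them to oxygen. Complexes I, III and IV pump protons as they do so, and complex V, the ATP synthase, lets the protons flow back to make ATP. Neurons depend on this pathway to pay for ion pumping and synaptic transmission. Nearly all of its subunits are nuclear encoded, and the factors NRF1, GABPA, YY1 and the estrogen-related receptors are known to act at many of their promoters.

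The study compared whole brains of C57BL/6 mice at 8 weeks of age, wild type or carrying, per the labels, a knockout of estrogen receptor alpha (ERalphaKO) or beta (ERbetaKO) on the same background. Each genotype had 3 female and 3 male samples, 1 array each. The labels do not state how the alleles were made or that each sample was a separate animal, so p-values measure only the spread between these samples. In whole brain RNA, fewer cells of a type and less RNA per cell cannot be told apart.

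The targeted genes did not bear out the labels. The only Esr2 probe set had a signal of 271 ± 98 (SD, n = 6) in the ERbetaKO-labelled arrays against 28.7 ± 11.4 in wild type, the opposite of a loss. Of the 3 Esr1 probe sets, the one of highest signal read 143 ± 35.9 in wild type against 129 ± 21.6 in ERalphaKO-labelled arrays, and another read 141 ± 50.6 against 230 ± 52.3. Where these probes lie relative to the targeted exons is not given in the sources used here, and every direction below rests on the labels. Xist separated the sexes on all 18 arrays, with 3916 as the lowest female and 449 as the highest male signal.

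Compared with wild type, the ERalphaKO-labelled brains had lower signals for a group of complex I, III, IV and V subunits, led by Cox8a. Of the 89 genes, 11 were lower (12.4%) and 2 were higher (2.25%) at a Benjamini-Hochberg adjusted limma p under 0.05, while 76 did not pass. Over all 13070 genes tested, 3.63% were lower and 3.08% higher. The lower genes were Cox8a, Cox6c and Cox6a1 of complex IV, Atp5g3 and Atp5j of complex V, Uqcrb of complex III, and Ndufb7, Ndufa3, Ndufa13, Ndufa12 and Ndufa8 of complex I. The higher genes were Ndufs8 of complex I and Sdhc of complex II. The median log2 difference was -0.15 over the 89 genes and -0.03 over all genes tested. Below 0 lay 70 of the 89 (78.7%, against 56.1% of all genes tested).

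The share of lower genes has to be read beside brightness. Of the 89 tested genes, 65 were among the 1307 genes of the brightest 10% on these arrays. In that brightest 10%, 10.7% of all genes were lower and 1.45% higher in ERalphaKO-labelled brains, with a median of -0.11 and 75.1% below 0. All 11 lower members belonged to the 65 bright members, where they made up 16.9%. Of those 65, 87.7% lay below 0. The 24 less bright members had a median of -0.03, with 0 lower and 1 higher, Sdhc. With quantile normalization, which forces the same distribution on every array, the median was -0.06 over the 89 genes and -0.03 over all genes tested. Then 3 members were lower (Cox8a, Ndufa3 and Ndufa8), or 3.37% against 3.56% of all genes. Only 1 was higher (Ndufs8), or 1.12% against 2.8%.

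By complex, the median differences were -0.08 in complex I, -0.15 in complex II, -0.14 in complex III, -0.25 in complex IV and -0.19 in complex V. In complex IV, 14 of 15 tested genes were below 0 and 3 passed as lower. In complex V, 16 of 17 were below 0 and 2 passed. In complex I, 29 of 44 were below 0 and 5 passed as lower. After quantile normalization these 5 medians were -0.03, -0.08, -0.04, -0.10 and -0.08 in the same order. Differences between complexes were not tested.

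**Figure D1:**
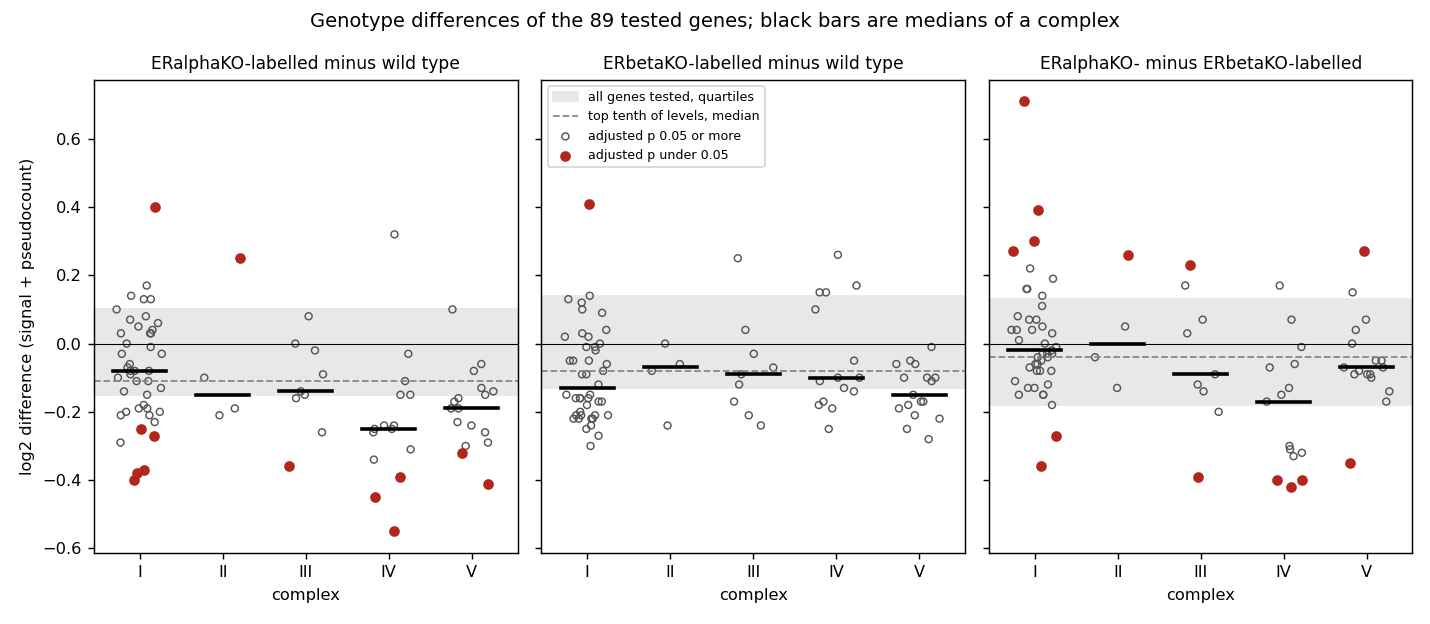
Log2 differences of the 89 tested genes in the 3 genotype comparisons, by complex. Each point is a gene, filled where the adjusted p is under 0.05, black bars are the medians of a complex, the grey band spans the quartiles of all 13070 genes and the dashed line is the median of the brightest 10% of genes. In the left panel 11 filled points lie below 0 and 2 above.

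Cox8a encodes a small transmembrane subunit of complex IV, in its form found in most tissues. Its signal was 10072 at the lowest, 11618 at the median and 12686 at the highest in wild type arrays, and 5860, 7932 and 9569 in ERalphaKO-labelled arrays. In ERbetaKO-labelled arrays the same 3 values were 8361, 10044 and 12690. Every ERalphaKO-labelled array was below every wild type array, while the ERbetaKO-labelled arrays overlapped both. The log2 difference from wild type was -0.55 ± 0.11 (SE, n = 6 each, limma adjusted p = 0.0114), with -0.62 in females and -0.47 in males. It stayed past the threshold with each of the 12 arrays compared left out in turn (adjusted p 0.0109 to 0.0364). It was -0.35 and still past the threshold after quantile normalization. Another bright Cox8a probe set gave -0.51 ± 0.12, and the mean of all 3 probe sets of the gene did not pass.

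Cox6c and Cox6a1 encode other small nuclear subunits of complex IV. Cox6c had a signal of 12196, 14625 and 15346 (lowest, median and highest) in wild type and 8411, 10295 and 11870 in ERalphaKO-labelled arrays. These groups did not overlap, and the log2 difference was -0.45 ± 0.13 (limma adjusted p = 0.0407). Cox6a1 had 11915, 14399 and 16485 against 8683, 10677 and 12545, with overlapping groups and a difference of -0.39 ± 0.11 (limma adjusted p = 0.0459). Cox5b, the subunit that binds zinc, did not pass the test (-0.34 ± 0.11, adjusted p = 0.0718), although its highest ERalphaKO-labelled array, 10276, was below its lowest wild type array, 10350. After quantile normalization the differences of Cox6c, Cox6a1 and Cox5b were -0.16, -0.09 and -0.10, and none of these passed.

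In complex V, Atp5g3 encodes a copy of the c subunit, which forms the rotating ring in the membrane. Its wild type arrays had 12485, 14281 and 17479 (lowest, median and highest) and its ERalphaKO-labelled arrays 9425, 11214 and 12040. The groups did not overlap, and the log2 difference was -0.41 ± 0.11 (limma adjusted p = 0.0371), or -0.08 after quantile normalization. The ERbetaKO-labelled arrays, at 11023 to 17786, covered the whole wild type range. Atp5j, coupling factor 6 of the stalk, had 7703 to 9389 in wild type and 5735 to 7285 in ERalphaKO-labelled arrays, again without overlap (-0.32 ± 0.08, limma adjusted p = 0.0285). The other c subunit genes, Atp5g1 and Atp5g2, encode the same mature protein as Atp5g3 and did not pass, at -0.23 ± 0.08 and -0.19 ± 0.06 (adjusted p = 0.0995 and 0.0819). The catalytic beta subunit Atp5b differed by -0.15 ± 0.10 (adjusted p = 0.394).

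In complex I the lower genes were all accessory subunits, which surround the catalytic core. Ndufb7 differed from wild type by -0.40 ± 0.11, Ndufa3 by -0.38 ± 0.09, Ndufa13 by -0.37 ± 0.08, Ndufa12 by -0.27 ± 0.08 and Ndufa8 by -0.25 ± 0.07 (limma adjusted p = 0.0189 to 0.0490). Ndufa13, also known as Grim19, had 6516, 8254 and 9496 (lowest, median and highest) in wild type and 5425, 6396 and 7058 in ERalphaKO-labelled arrays. Its groups overlapped, as did those of the other 4. Among 6 tested core subunits the median difference was -0.04, and Ndufs8 passed as higher. The 8 assembly factors had a median of 0.02, and 0 passed in this comparison, with 1 at an unadjusted p under 0.05, Ndufaf4.

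Ndufs8 encodes the core subunit that carries iron-sulfur clusters N6a and N6b. Its kept probe set had 3795, 4368 and 5875 (lowest, median and highest) in wild type, 5359, 6064 and 6983 under the ERalphaKO label and 3152, 3740 and 4283 under the ERbetaKO label. The ERalphaKO-labelled arrays overlapped wild type but were all above the ERbetaKO-labelled arrays. The difference from wild type was 0.40 ± 0.12 (limma adjusted p = 0.0468), and 0.52 after quantile normalization.

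In complex III, Uqcrb encodes a subunit at the ubiquinone site. Its signal was 13138, 15540 and 16673 (lowest, median and highest) in wild type, 10286, 12011 and 13694 under the ERalphaKO label and 11718, 13171 and 15171 under the ERbetaKO label. The log2 difference from wild type was -0.36 ± 0.08 (limma adjusted p = 0.0208) as deposited and 0.00 after quantile normalization, and the groups overlapped. The 4 core subunits of complex III had a median of -0.12 and none passed, Cyc1, the cytochrome c1 subunit, standing at -0.26 ± 0.09 (adjusted p = 0.0819). In complex II, Sdhc, which anchors the enzyme in the membrane and helps to bind ubiquinone, had 1860 to 2465 in wild type and 2363 to 2759 in ERalphaKO-labelled arrays (0.25 ± 0.07, limma adjusted p = 0.0444). The flavoprotein Sdha and the iron-sulfur subunit Sdhb went the other way without passing, at -0.21 ± 0.08 and -0.19 ± 0.07 (adjusted p = 0.124 and 0.107).

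**Figure D2:**
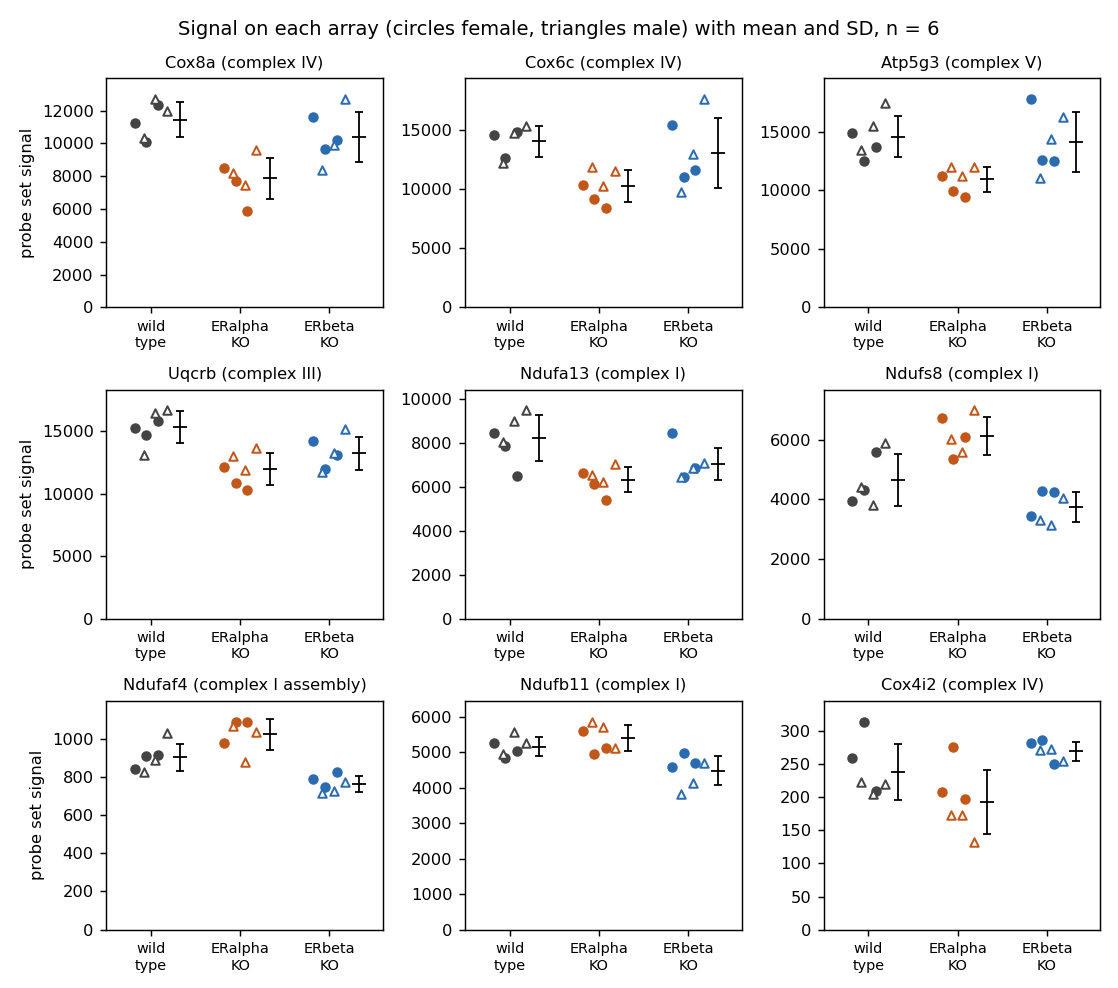
Probe set signal of 9 genes on each of the 18 arrays, by genotype label, with circles for females, triangles for males and the mean ± SD of 6 arrays beside them. All ERalphaKO-labelled values of Cox8a, Cox6c and Atp5g3 lie below the wild type values, and those of Ndufs8 and Ndufaf4 lie above the ERbetaKO-labelled values.

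The calls for this comparison depended on single arrays. With 1 array left out in turn, between 1 and 21 genes were lower and between 0 and 2 higher. The shares of all genes in these fits are not given here, so the counts cannot be read as particular to the members. The count of lower genes fell to between 1 and 7 without wild type female 1 or 3, wild type male 2 or 3, ERalphaKO female 2 or 3, any ERalphaKO male, or ERbetaKO male 2, and rose to 21 without ERbetaKO male 3. Both calls of higher genes were lost without wild type female 1, wild type male 1, ERalphaKO female 1, 2 or 3, ERalphaKO male 1 or 2, ERbetaKO female 2 or 3, or ERbetaKO male 2, and 1 of them without wild type female 2 or 3, wild type male 2 or 3, ERalphaKO male 3 or ERbetaKO male 1. Of the 13 calls, Cox8a was kept in all 12 such fits and Ndufa13 was lost in 1, while the other 11 were lost in 3 to 11.

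Groups of 6 that did not overlap were found for 6 of the 89 genes (6.74%) between ERalphaKO-labelled and wild type arrays, and for 4.67% of all genes. Lower were Atp5g3, Atp5j, Cox5b, Cox6c and Cox8a. Higher was Cox7c, a small subunit of complex IV whose kept probe set was weak, at 121 to 188 in wild type and 192 to 276 in ERalphaKO-labelled arrays (0.32 ± 0.10, limma adjusted p = 0.0617).

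The array reads 51 of the 91 genes with more than 1 probe set, and these did not always give the same answer. Above the filter were 72 further probe sets of 46 genes. In ERalphaKO-labelled against wild type arrays, 44 of these had the direction of the kept probe set and 28 the opposite. For 6 genes, Cox6c, Ndufab1, Ndufb6, Ndufs8, Sdhc and Uqcrb, both probe sets had an unadjusted p under 0.05 in a fit of all probe sets while pointing in opposite directions. Another probe set of Uqcrb gave 0.26 ± 0.07 where the kept one gave -0.36. For Cox6c the values were 0.16 ± 0.05 and -0.45, and for Sdhc -0.43 ± 0.09 and 0.25.

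Ndufs8 had 6 probe sets, all above the filter. Besides the kept one at 0.40, another gave 0.43 ± 0.09, and the remaining 4 gave -0.24 ± 0.10, -0.22 ± 0.11, -0.18 ± 0.12 and -0.09 ± 0.16. Ndufab1, the mitochondrial acyl carrier protein, stood at 0.13 in its kept probe set and -0.45 ± 0.11 in another, and the accessory subunit Ndufb6 at -0.21 and 0.19 ± 0.07. The 11 lower calls included 7 genes with further probe sets above the filter, and for 5 of them these had the same direction: Cox8a at -0.51, Ndufb7 at -0.24, Ndufa3 at -0.22, Ndufa12 at -0.32 and -0.19, and Cox6a1 at -0.15. Of the kept probe sets, 24 have names ending in _a_at, 13 in _s_at and 4 in _x_at, the suffixes Affymetrix gave to probe sets that can match several transcripts. Many of these genes have processed pseudogenes, and which transcripts each probe set reads was not tested.

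**Figure D3:**
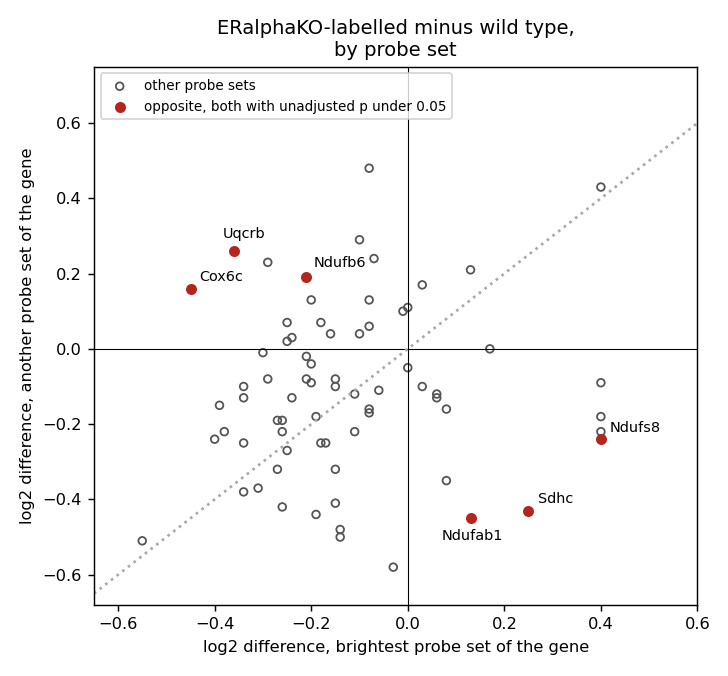
Log2 difference between ERalphaKO-labelled and wild type arrays in the kept probe set of a gene (horizontal) and in each further probe set above the filter (vertical), for 72 probe sets of 46 genes. Filled points have opposite signs and an unadjusted p under 0.05 in both, and the dotted line marks equal values.

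The members were also set beside the upper end of each array's signal distribution. The median deviation of the 89 genes from their means over 18 arrays was 0.08 ± 0.07 (SD, n = 6) in wild type, -0.06 ± 0.07 under the ERalphaKO label and -0.03 ± 0.12 under the ERbetaKO label. The same median over the other 1242 genes of the brightest 10% was 0.06 ± 0.08, -0.05 ± 0.08 and -0.01 ± 0.06. The 99th percentile of signal was 7464 ± 570, 6692 ± 429 and 7065 ± 592. The groups overlapped in all 3 measures. The arrays with the highest 99th percentile were wild type male 3 (8320) and ERbetaKO male 3 (8026), with member deviations of 0.16 and 0.12. The lowest, ERalphaKO female 3 (5980) and ERalphaKO female 2 (6387), had -0.12 and -0.13. Other arrays departed from this order: ERbetaKO male 2 and wild type male 1, with 99th percentiles of 6959 and 6945, had member deviations of -0.13 and 0.02, and the other bright genes stood at 0.00 on both. The part of array brightness in the lower signals of the members was not tested. After quantile normalization the member deviations were 0.03 ± 0.02, -0.01 ± 0.03 and -0.02 ± 0.07, and ERbetaKO male 1 and 2 stayed at -0.10.

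**Figure D4:**
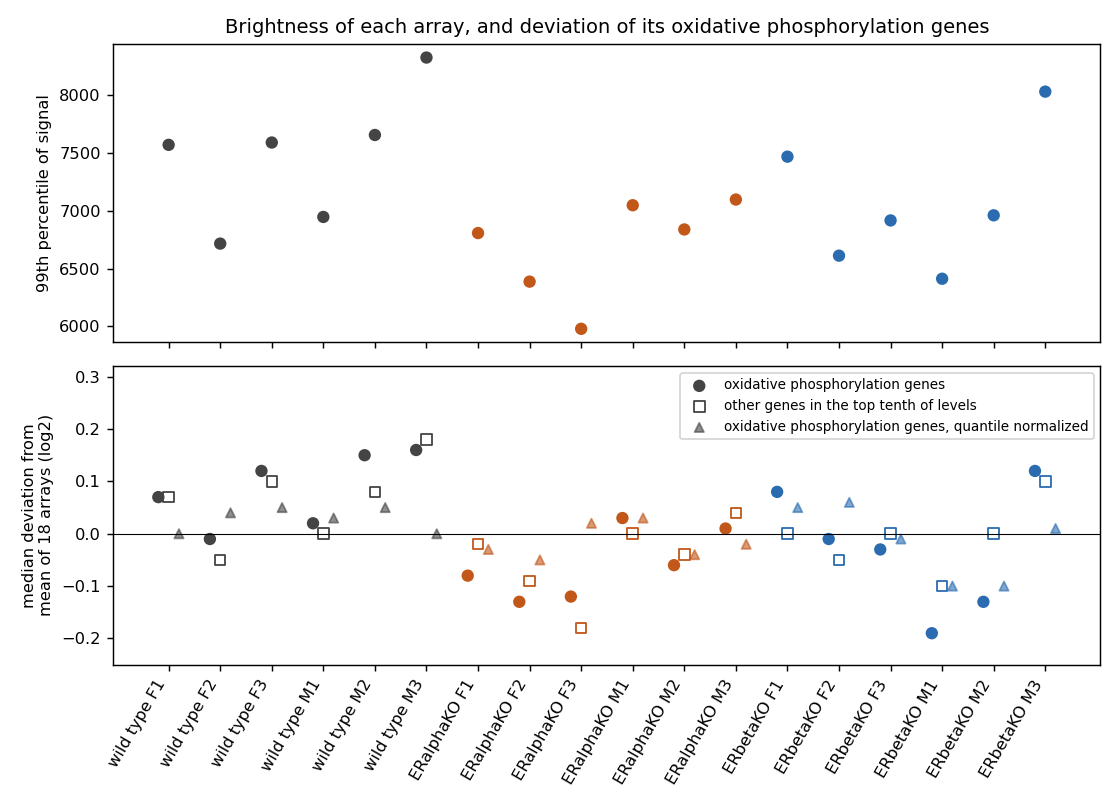
The 99th percentile of signal on each array (top) and the median log2 deviation of its oxidative phosphorylation genes, of the other bright genes and of the same members after quantile normalization (bottom). F and M are female and male with the replicate number. Filled circles and open squares run close together on most arrays, while the triangles of wild type and ERalphaKO-labelled arrays stay between -0.05 and 0.05.

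Compared with the same wild type arrays, ERbetaKO-labelled brains had 1 higher gene (1.12%), Ndufb4, and 0 lower genes at an adjusted limma p under 0.05. Over all genes tested, 2.9% were higher and 4.61% lower. At an unadjusted p under 0.05 there were 31 genes (34.8%, against 25.4% of all genes tested). The median log2 difference was -0.11 over the 89 genes, 0.01 over all genes, and -0.08 over the brightest 10%, of which 8.57% were lower. The median of the members was -0.05 after quantile normalization, and that of all genes -0.01. With it 1 member was lower (1.12%, against 4.7% of all genes) and 0 were higher (against 2.81%). All 17 complex V genes were below 0, with a median of -0.15, and 34 of 44 complex I genes were, with a median of -0.13. Over the 89 members 80.9% were below 0, against 48.9% of all genes tested. Among the brightest 10% it was 95.4% of the members there and 69.3% of all genes.

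Ndufb4, an accessory subunit of complex I, had 159, 188 and 223 (lowest, median and highest) in wild type and 230, 256 and 397 in ERbetaKO-labelled arrays, levels in the lowest 15.6% of tested genes. The groups did not overlap, and the difference was 0.41 ± 0.11 (limma adjusted p = 0.0401), lost after quantile normalization (0.32). Cox7b2, untested for its low signal, had 53.4 to 76.5 in wild type and 127 to 200 in ERbetaKO-labelled arrays. Groups without overlap were found for 1 of the 89 tested genes (1.12%), Ndufb4, against 4.09% of all genes. The genes nearest to the threshold below 0 were Sdhb (-0.24 ± 0.07, adjusted p = 0.0502), the complex I subunit Ndufb2 (-0.25, adjusted p = 0.0507) and Uqcrc1, a core subunit of complex III (-0.24 ± 0.07, adjusted p = 0.0562).

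The count of 0 lower genes rested on ERbetaKO male 3, the second brightest array, without which 20 genes were lower. Without ERbetaKO female 1 there were 3, without wild type male 1 there were 2 and without wild type female 1 there was 1. As the shares of all genes lower in these fits are not given here, the counts cannot be read as particular to the members. The call of Ndufb4 was lost in 8 of the 12 fits that left out an array, those without wild type female 1, 2 or 3, wild type male 2 or 3, ERbetaKO female 2, or ERbetaKO male 1 or 2. Core complex I subunits had a median of -0.21, with 5 of 6 at an unadjusted p under 0.05: Ndufs3 at -0.16 ± 0.07, Ndufs7 at -0.21 ± 0.08, Ndufs8 at -0.30 ± 0.12, Ndufv1 at -0.22 ± 0.07 and Ndufv2 at -0.22 ± 0.08. The sixth, Ndufs1, stood at 0.09 ± 0.06, and none of the 6 passed after adjustment (smallest adjusted p = 0.0753).

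Between the knockout-labelled groups, 7 genes were higher and 7 lower in ERalphaKO-labelled than in ERbetaKO-labelled brains (7.87% each), against 6.31% and 9.1% of all genes tested. The median was -0.05 over the 89 genes and -0.02 over all genes tested. After quantile normalization it turned to 0.01, with 7 higher and 7 lower (7.87% each, against 6.36% and 8.78% of all genes). Of each 7, 5 were shared with the calls below. Each of these arrays also entered a comparison with wild type above, so the 3 comparisons share samples. Higher were Ndufs8 (0.71 ± 0.12, limma adjusted p = 0.00259), Ndufaf4 (0.39 ± 0.07, adjusted p = 0.00315), Ndufb10, Atp5e, Ndufb11, Sdhc and Uqcrc1 (0.23 to 0.30). Lower were Cox8c (-0.42 ± 0.11, adjusted p = 0.0200), Cox8a (-0.40 ± 0.11, adjusted p = 0.0271), Cox4i2 (-0.40 ± 0.10, adjusted p = 0.0160), Uqcr10, Ndufb4, Atp5g3 and Ndufa4l2 (-0.27 to -0.39).

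Ndufaf4, a factor of early complex I assembly, had 824, 898 and 1031 (lowest, median and highest) in wild type, 877, 1049 and 1089 under the ERalphaKO label and 715, 761 and 825 under the ERbetaKO label. The knockout-labelled groups did not overlap, and the wild type arrays overlapped both. Its other probe set above the filter gave 0.25 ± 0.07 for the same comparison. Groups without overlap were found for 3 of the 89 genes (3.37%), Ndufaf4, Ndufs8 and Ndufa4l2, against 5.85% of all genes. Ndufa4l2, a hypoxia-induced relative of Ndufa4, had 256 to 283 under the ERalphaKO label and 296 to 427 under the ERbetaKO label.

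Of these 14 calls, Ndufs8, Ndufaf4, Ndufb11, Cox8c and Cox4i2 stayed past the threshold with each of the 12 arrays left out in turn. Of these 5, Ndufs8 and Ndufb11 varied with the probe set. Another probe set of Ndufs8 gave 0.46 ± 0.09 for this comparison, in the direction of the kept one. The others gave 0.14, 0.05, 0.01 and 0.01, and the mean of all probe sets gave 0.23 and did not pass. The 2 other probe sets of Ndufb11, an accessory subunit of complex I, gave 0.05 and 0.09 beside 0.27, and their mean with the kept one gave 0.14 and did not pass. The call of Cox4i2 was lost with the Actb ratio described below as a covariate, while Ndufaf4 and Cox8c were kept in all 11 other settings. The count of higher genes fell to 3 or 4 without ERalphaKO female 1 or 3, ERalphaKO male 1 or 2, ERbetaKO female 3 or ERbetaKO male 2. The count of lower genes fell to between 2 and 4 without ERalphaKO female 1 or 3, ERalphaKO male 1 or 2, ERbetaKO female 1, or ERbetaKO male 2 or 3. Shares of all genes in these fits are not given here. For Uqcr10, a small subunit of complex III, 2 further probe sets gave -0.33 ± 0.13 and -0.29 ± 0.09 beside -0.39 ± 0.11 in the kept one. For Cox8c another gave -0.71 ± 0.14. Both Ndufab1 and Uqcrq had a further probe set of opposite direction with an unadjusted p under 0.05 on both sides.

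Several subunits exist as tissue isoforms, and these were compared within each gene only, since signals of different probe sets are not on the same scale. The usual brain forms Cox4i1, Cox6b1 and Cox7a2 differed between ERalphaKO-labelled and wild type arrays by -0.24 ± 0.10, -0.25 ± 0.08 and -0.26 ± 0.09, and none passed (adjusted p = 0.0785 to 0.139). After quantile normalization the values were 0.02, -0.01 and 0.09. Cox4i2, a lung-enriched form tied to the response to low oxygen, had 205 to 314 in wild type, 132 to 276 under the ERalphaKO label and 251 to 286 under the ERbetaKO label. The muscle forms Cox6a2 and Cox7a1 gave -0.15 ± 0.13 and -0.11 ± 0.15 and the testis form Cox6b2 -0.03 ± 0.13, none of which passed. Cox8c, a testis form, had 1485 to 1918 in wild type, 1190 to 1533 under the ERalphaKO label and 1327 to 2284 under the ERbetaKO label. Cox8b ranged from 27.6 to 262 over all 18 arrays. Ndufa4, named for complex I but now placed in complex IV, gave -0.19 ± 0.10 (adjusted p = 0.240), and Cox7a2l gave -0.15 ± 0.13 (adjusted p = 0.503).

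No member differed between females and males at an adjusted limma p under 0.05, against 0.0306% of all genes tested. An unadjusted p under 0.05 was found for 3 of 89 (3.37%, against 4.61% of all genes). The smallest p was that of Cox4i2, at 0.20 higher in females (limma adjusted p = 0.974). For the difference of the ERalphaKO effect between the sexes, 0 members passed, as did 0 of all 13070 genes. An unadjusted p under 0.05 was found for 1 member, Ndufaf2 (0.67, limma adjusted p = 0.945), or 1.12% against 5.16% of all genes. For the ERbetaKO effect, 0 members and 0 of all genes passed, and 2 members (2.25%, against 3.4% of all genes) had an unadjusted p under 0.05, the smallest being that of Cyc1 (0.42, limma adjusted p = 1). Within each sex, where the groups hold 3 arrays, the ERalphaKO-labelled median was -0.17 in females and -0.14 in males, and 55 of 89 genes were below 0 in both. The ERbetaKO-labelled median was -0.05 in females and -0.19 in males, with 54 of 89 below 0 in both. Over all genes tested the medians were -0.02 and -0.04 for ERalphaKO and 0.01 and 0.00 for ERbetaKO. The share of all genes below 0 in both sexes is not given here. No member passed within a sex, where 50 and 106 of all genes did for ERalphaKO and 43 and 231 for ERbetaKO, in females and males. At an unadjusted p under 0.05 there were 29 members in females (32.6%, against 14.5% of all genes) and 18 in males (20.2% against 16.5%) for ERalphaKO. For ERbetaKO there were 2 in females (2.25% against 11%) and 32 in males (36% against 20.5%). These counts are no test of a difference between the sexes.

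Other genes of the pathway were described from lists of their own. Over all genes tested, 3.08% were higher and 3.63% lower in ERalphaKO-labelled than in wild type brains. In ERbetaKO-labelled brains the shares were 2.9% and 4.61%, and between the knockout-labelled groups 6.31% and 9.1%. Whether the counts of any list below departed from these shares was not tested. ND5, the complex I subunit of the mitochondrial genome and the only gene of that genome with a probe set of its own symbol here, had 17154 to 24911 in wild type, 11178 to 14756 under the ERalphaKO label and 14477 to 24187 under the ERbetaKO label. Its ERalphaKO-labelled arrays were all below wild type, by -0.57 ± 0.12 (limma adjusted p = 0.0114), and it was among the brightest probe sets. It was also lower than in ERbetaKO-labelled brains (-0.46 ± 0.12, limma adjusted p = 0.0192). Of 29 tested assembly factors outside the families above, 0 passed in ERalphaKO-labelled against wild type brains, and 1, Cox10, needed to make the heme of complex IV, was lower in ERbetaKO-labelled brains (-0.25 ± 0.06, limma adjusted p = 0.0271). Between the knockout-labelled groups 5 of the 29 passed, where 6.31% of all genes were higher and 9.1% lower. Sco2 (0.41 ± 0.12) and Cox20 (0.28 ± 0.06) were higher under the ERalphaKO label. Cox19 (-0.33 ± 0.10), Coa5 (-0.29 ± 0.08) and Sdhaf2 (-0.26 ± 0.07) were lower. Of 22 regulators and mitochondrial DNA maintenance genes, 0 passed in each of the 3 comparisons, with Ppargc1a at 0.09 ± 0.07, Nrf1 at 0.05 ± 0.11, Tfam at 0.10 ± 0.08 and Esrra at 0.02 ± 0.09 in ERalphaKO-labelled against wild type brains. Among 12 genes of mitochondrial mass, such as porins and import components, 0 passed against wild type in ERalphaKO-labelled brains, and 1, the import motor subunit Timm44, was lower in ERbetaKO-labelled brains (-0.24 ± 0.07), with 0 called between the knockout-labelled groups.

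Of 15 tested genes of the TCA cycle and pyruvate dehydrogenase, which feed electrons to the chain, Dld was higher (0.32 ± 0.07) and Pdha1 lower (-0.29 ± 0.07) in ERalphaKO-labelled than in wild type brains (limma adjusted p = 0.0146 and 0.0303). In ERbetaKO-labelled brains Ogdh (-0.34 ± 0.06) and Suclg1 (-0.22 ± 0.06) were lower (limma adjusted p = 0.00366 and 0.0472). Of 16 electron carriers and coenzyme Q genes, 0 passed in ERalphaKO-labelled brains, where cytochrome c, Cycs, stood at 0.07 ± 0.07. The ubiquinone synthesis gene Coq6 was lower in ERbetaKO-labelled brains (-0.63 ± 0.14, limma adjusted p = 0.0174). Compared with ERbetaKO-labelled brains, the ERalphaKO-labelled ones were higher in Dld (0.29 ± 0.07), Suclg1 (0.22 ± 0.06), Coq6 (0.92 ± 0.14) and Etfa, a subunit of the electron transfer flavoprotein (0.29 ± 0.08).

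Markers of brain cell types were compared in the same way. The 10 neuronal markers all passed the filter on low values and had a median of -0.32 in ERalphaKO-labelled against wild type brains. Syn1 and Nefl were lower and 8 did not pass the test, among them Nefm at 0.04 ± 0.13. The brightest 10% of all genes had a median of -0.11, and many of these markers are bright, such as Snap25 (mean signal 14181). Their summed signal ran from 77776 to 99587 in wild type, 61979 to 76288 under the ERalphaKO label and 72968 to 91797 under the ERbetaKO label, so the first 2 ranges did not overlap. The summed signal of 7 endothelial markers ran from 4925 to 5479 in wild type. It ran from 4113 to 4602 under the ERalphaKO label and 4359 to 4848 under the ERbetaKO label, both below wild type. This sum is weighted to the brightest of them, Slco1a4 and Cldn5 (wild type means 1785 and 1545). As a mean of log2 values centred per gene, the 7 markers ran from 0.01 to 0.19 in wild type. They ran from -0.19 to -0.02 under the ERalphaKO label and, overlapping wild type, from -0.04 to 0.06 under the ERbetaKO label. The sums of astrocyte, oligodendrocyte and microglial markers overlapped between wild type and both labels. For astrocytes they ran from 51912 to 60015 in wild type and 42201 to 53373 under the ERalphaKO label. The part of array brightness in these sums was not tested. In ERalphaKO-labelled brains, of 11 astrocyte markers 1 was lower, Aldoc, and of 10 oligodendrocyte markers 0 passed (median 0.03). Of 9 microglial markers 2 were lower, C1qa and Ctss, and of the endothelial markers 1 was lower, Cldn5. In ERbetaKO-labelled against wild type brains, 0 neuronal markers passed, and the astrocyte median was -0.34 with Gfap (-1.23 ± 0.14, limma adjusted p = 0.000188) and Slc7a10 (-0.47 ± 0.10) lower. The oligodendrocyte gene Myrf (-0.75 ± 0.22), the microglial gene Cx3cr1 (-0.52 ± 0.13) and Cldn5 (-0.39 ± 0.07) were lower there too. The part of these markers in the member values of either comparison was not tested.

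The cerebellar share of the samples varied within every genotype. Pcp2, the Purkinje cell marker, ran from 117 to 10790 in wild type, 209 to 7263 under the ERalphaKO label and 225 to 9849 under the ERbetaKO label, and of 12 tested cerebellar markers 0 passed in each comparison. With a cerebellar marker score as a covariate, 16 members were lower (18%, against 6.25% of all genes) and 3 higher (3.37% against 5.07%) in ERalphaKO-labelled than in wild type brains. A measure of RNA quality also moved with the genotype labels: the linear ratio of the 3' to the 5' Actb control probe sets was 1.20 ± 0.0209 (SD, n = 6) in wild type, 1.28 ± 0.0786 under the ERalphaKO label and 1.48 ± 0.182 under the ERbetaKO label. With the log2 of this ratio as a covariate, 1 member was lower, Cox8a (1.12%, against 1.55% of all genes), and 0 were higher (against 1.72%) in ERalphaKO-labelled brains.

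The start regions of the members were searched for short motifs of known regulators of this pathway, from 250 bases before to 50 bases after each start in RefSeq on GRCm38.p6, on both strands. The table held 79 start regions for 74 of the 91 genes. The NRF1 motif GCATGCGC was found in 13.9% of them and in 2.71% of all 32851 start regions, YY1's AAGATGGC in 12.7% and 2.75%, GABPA's CCGGAAGT in 6.33% and 3.89%, and TCAAGGTCA of the estrogen-related receptors (ERR) in 2.53% and 0.423%. The palindromic estrogen response element was found in 0 of the 79 and in 0.07% of all. A match describes the letters only, and the lack of a match does not show that a factor has no site there. At least 1 of the motifs was found for 27 of the 74 genes (36.5%). Of the 11 genes lower in ERalphaKO-labelled brains, 9 had a start region in the table, Cox6c and Uqcrb being without one, and 6 of the 9 had a match. The matches of these 6 genes are printed below, with the motif in capitals (TGACCTTGA and ACTTCCGG are the reverse-strand forms):
Cox8a, chr19:7217604-7217633, minus strand, GABPA: atttccgaaatACTTCCGGctcgggcgtcc
Cox8a, chr19:7217567-7217596, minus strand, GABPA: tcagcgccggaACTTCCGGctggttcggcc
Cox6a1, chr5:115349085-115349144, minus strand, NRF1: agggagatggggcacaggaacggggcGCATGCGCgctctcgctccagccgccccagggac
Ndufa8, chr2:36049339-36049398, minus strand, NRF1: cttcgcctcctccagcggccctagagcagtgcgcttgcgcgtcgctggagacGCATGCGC
Atp5j, chr16:84835031-84835090, minus strand, YY1: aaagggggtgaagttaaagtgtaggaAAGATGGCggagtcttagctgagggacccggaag
Ndufa3, chr7:3617384-3617413, plus strand, YY1: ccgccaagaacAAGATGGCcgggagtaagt
Atp5g3, chr2:73911344-73911403, minus strand, ERR: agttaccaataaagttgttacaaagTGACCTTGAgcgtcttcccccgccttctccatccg

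Cox8a, the member with the most negative difference between ERalphaKO-labelled and wild type brains, held 2 copies of the GABPA letters, 1 spanning the start and 1 within the transcribed stretch from base 32 to base 39. The Cox6a1 motif lay 160 to 153 bases before the start and overlapped its own reverse-strand match, and that of Ndufa8 ended at the last base before the start. The motif of Atp5j lay 88 to 81 bases before the start, that of Ndufa3 at bases 23 to 30 of the transcript, and that of Atp5g3 52 to 44 bases before the start. Ndufb7, Ndufa12 and Ndufa13 held none of these letters in this window.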

How the data were processed

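Whole brain RNA of 18 samples was measured on Affymetrix Mouse 430 2.0 arrays. The authors deposited intensities on a linear scale for each probe set. MAS5 is the software named in the submitters' processing notes, and its version is not given in the sources used here. In each deposited column the 2% trimmed mean was 500. The table holds no detection calls, so a weak probe set can be told only from how low its intensity is. Precision is limited by the number of arrays.

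After leaving out 64 control probe sets, 34945 probe sets had 1 symbol. The probe set of highest mean stood for each gene (18193 genes), and 10 probe sets that share a symbol of these families with another gene were left out. Intensities were transformed as log2(intensity + 63.63), the pseudocount being the 25th percentile, so differences of weak genes are understated. The 13070 genes that reached the 40th percentile of probe set means (log2 level 7.58) were tested. A mean for each genotype and sex was fitted in limma (version 3.58.1, R 4.3.3) with a variance trend on intensity, all 18 arrays sharing 1 estimate of the spread, and genotype comparisons averaged the sexes. P-values were adjusted over all genes tested by the Benjamini-Hochberg method at 0.05. The fit was tested on simulated data. Python 3.11.15 and matplotlib 3.10.9 drew the figures. Promoter sequences came from RefSeq (GRCm38.p6), matched by gene ID.

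The members, gene lists and motifs were chosen with earlier results of these data known. Named members were those past the threshold (up to 10 each way, or the 3 smallest p), tissue isoforms, genes whose groups did not overlap, genes with probe sets of opposite direction, the sex comparison with the smallest p, and up to 4 genes of each other list. The rule also took the highest and lowest signal of each complex, which is not used because signals of different probe sets are not comparable. Ndufs3, Ndufs7, Ndufv1, Ndufv2, Ndufs1, Atp5b, the regulators Ppargc1a, Nrf1, Tfam and Esrra, Cycs, and some listed genes that differed between the knockout-labelled groups are named outside this rule, chosen after their values were seen. Alternatives were other pseudocounts, quantile normalization, other filters, the mean of all probe sets, a replicate block, 2 genotypes only, covariates for cerebellar markers and for the Actb ratio, arrays with strong Pcp2, and each array left out. The strong Pcp2 fit kept arrays with a Pcp2 signal of at least 500. These were 2 of 3 arrays in each group, but 1 of 3 in ERbetaKO females. Sex was an additive term there, so this fit differs from the main one in arrays and in model.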

Additional observations from a re-analysis of the deposited data

Results flagged for a closer look

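Among 72 groups of 6 arrays of the named members, 3 held an array far from the other 5 by Dixon's test for a single distant value, which chance alone gives in about 1 in 20 groups. For Atp5e, the epsilon subunit of the ATP synthase, ERalphaKO female 3 had a signal of 2464, the nearest other array 2167. For Ndufa13, ERbetaKO female 1 had 8459, the nearest other array 7100. For Ndufb4, ERbetaKO female 2 had 397, the nearest other array 264.9. Without that array the Ndufb4 call against wild type was lost.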

How the results depend on the processing

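Against wild type in ERalphaKO-labelled brains, 2 members were higher and 11 lower with the settings used above. The higher and lower counts were 1 and 3 with quantile normalization and 0 and 6 without a filter. They were 0 and 9 with the mean of all probe sets and 0 and 19 with only the 2 genotypes fitted. They were 0 and 1 when the Actb ratio was a covariate and 1 and 0 on arrays with strong Pcp2. With the filter at the 60th percentile they were 2 and 15. Lower members made up 3.37% with quantile normalization (3.56% of all genes), 6.59% without a filter (1.82%) and 10.2% with probe set means (2.65%). They made up 21.3% with 2 genotypes (4.12%), 1.12% with the Actb ratio (1.55%) and 0% with strong Pcp2 (0.505%). With the 60th percentile filter they made up 18.1% (4.76%). In these settings at most 2.41% of members were higher, against 0.712% to 4.09% of all genes. With the replicate block 3.37% of members were higher (2.65% of all genes), and with the cerebellar covariate 3.37% (5.07%). The median of -0.15 became -0.06 with quantile normalization. Its sign was kept in all alternatives, and that of ERbetaKO-labelled against wild type brains (-0.11) likewise. With the mean of all probe sets Sdhc turned from 0.25 to -0.09 and Uqcrb from -0.36 to 0.00.

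In ERbetaKO-labelled against wild type brains, the 1 higher member, Ndufb4, was 0 with quantile normalization, the replicate block, 2 genotypes, the Actb ratio or strong Pcp2. The 60th percentile filter left Ndufb4 untested, and 0 members were higher. Of all genes, 0.191% to 3.17% were higher in these settings. Without a filter Ndufb4 was lost too, and the 1 higher member was Cox7b2 (1.1%, against 1.89% of all genes). The 0 lower members were 1 with the pseudocount at the median or quantile normalization (1.12%, against 4.7% of all genes in each). They were 2 with the mean of all probe sets (2.27% against 3.57%) and 3 with the 60th percentile filter (3.61% against 6.28%). With the replicate block they were 3 (3.37% against 3.8%) and with the cerebellar covariate 6 (6.74% against 6.74%). Between the knockout-labelled groups, 7 higher and 7 lower became 3 and 2 with the Actb ratio. That is 3.37% and 2.25%, against 3.01% and 2.8% of all genes. They became 4 and 9 with strong Pcp2 (4.49% and 10.1%, against 6.24% and 8.51%). With 2 genotypes they became 6 and 4 (6.74% and 4.49%, against 5.62% and 8.68%).

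Leaving out 1 array at a time gave 0 to 2 higher and 1 to 21 lower members for ERalphaKO-labelled against wild type, with medians of -0.18 to -0.13. For ERbetaKO-labelled against wild type there were 0 to 1 and 0 to 20, with -0.17 to -0.07. Between the knockout-labelled groups there were 3 to 8 and 2 to 9, with -0.08 to 0.00. Shares of all genes in the fits that left out an array are not given here. With a replicate block, ERalphaKO-labelled brains had 3 higher (3.37%, against 2.65% of all genes) and 15 lower (16.9% against 3.36%). ERbetaKO-labelled brains had 0 higher (against 2.24%) and 3 lower (3.37% against 3.8%). Same-numbered arrays of a sex correlated at -0.403 to 0.435 (median 0.069), and differently numbered ones at -0.525 to 0.389 (median -0.028). These ranges overlap and the labels do not say whether the numbers pair the samples, so pairing stays undecided. The cause of these changes was not tested. Changes near background cannot be measured, since differences of weak probe sets shrink with the pseudocount.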
